A study of Homo sapiens with 22 samples.

Results

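Dividing fibroblasts of day 0 (D0) were BJ cells, an established line of human foreskin fibroblasts, caught in the cell cycle before the first transfection of a reprogramming experiment in microfluidic chambers. They were chosen by their own UMIs (unique molecular identifiers, 1 per captured transcript) of MKI67 and TOP2A. A kept cell, with at least 1000 genes detected and at most 10% of its UMIs on mitochondrial genes, was taken as dividing if both genes together had 5 or more UMIs, and as non-dividing if they had 0. This gave 1758 dividing cells among 10776 kept D0 cells and 41975 kept cells of the series, against 5931 non-dividing cells. The other 3087 D0 cells had 1 to 4 UMIs and are called intermediate. The series holds 22 droplet libraries in 16 pools, 2 pools (A and B) on each of 8 days. D0 cells had received no reprogramming mRNA, were labelled as the control, and had been grown in DMEM with foetal bovine serum. Cells of D3, used below for comparison, were harvested 3 days after transfection, when the cells received daily non-modified mRNAs for POU5F1, SOX2, KLF4, MYC, LIN28 and NANOG in a different medium. Each pool joined cells of 4 independent chips and was frozen and thawed before capture, so that a pool is 1 mixture of cultures of a single line. The p-values below measure only how evenly differences between classes of cells repeated in such pools. The test takes that spread in part from all genes tested.

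MKI67 encodes Ki-67, a protein that coats mitotic chromosomes and is made in cycling cells, and TOP2A encodes DNA topoisomerase II alpha, which untangles replicated DNA. Both transcripts build up from S phase into G2 and mitosis, so a gate on them takes mainly cells past the start of S phase and misses most cells in G1. In the cycle, D-type cyclins act first, E-type cyclins open S phase, cyclin A accompanies DNA synthesis, and B-type cyclins with CDK1 drive mitosis until CDC20 and the anaphase-promoting complex, with its ubiquitin-conjugating enzyme UBE2C, have them destroyed. Genes of S phase are switched on largely by E2F factors, and genes of G2 and mitosis by the MuvB complex with MYBL2 and FOXM1, which is recruited through a promoter element called CHR, often beside CCAAT boxes bound by NF-Y.

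The promoters of MKI67, of 4 genes of mitosis and of E2F1, which acts at the start of S phase, are shown first, because they show elements known from cell cycle promoters, which the choice of cells did not use. Each line gives the 120 bases before the RefSeq gene start (GRCh38.p14), 5′ to 3′ on the strand of the gene. Capitals mark TTTGAA (CHR), CCAAT or ATTGG (the CCAAT box read on either strand) and the E2F letters TTTGGCGC.

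CDC20: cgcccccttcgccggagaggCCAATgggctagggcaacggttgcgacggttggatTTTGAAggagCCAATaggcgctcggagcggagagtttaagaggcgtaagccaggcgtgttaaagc
CCNB2: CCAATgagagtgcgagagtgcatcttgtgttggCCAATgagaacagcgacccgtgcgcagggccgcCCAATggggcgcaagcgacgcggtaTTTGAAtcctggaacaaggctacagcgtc
HMMR: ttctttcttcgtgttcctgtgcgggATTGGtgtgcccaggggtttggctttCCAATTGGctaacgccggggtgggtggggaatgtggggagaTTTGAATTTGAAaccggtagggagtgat
MKI67: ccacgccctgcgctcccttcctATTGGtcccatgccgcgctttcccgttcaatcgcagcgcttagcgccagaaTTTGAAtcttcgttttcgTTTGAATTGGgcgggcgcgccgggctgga
CCNB1: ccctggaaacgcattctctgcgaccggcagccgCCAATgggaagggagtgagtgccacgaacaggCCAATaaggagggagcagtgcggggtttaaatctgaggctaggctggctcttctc
E2F1: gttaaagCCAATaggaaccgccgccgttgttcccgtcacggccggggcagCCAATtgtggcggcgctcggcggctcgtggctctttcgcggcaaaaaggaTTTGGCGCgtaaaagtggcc

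The CDC20 stretch is chr1:43358861-43358980 (+), that of CCNB2 is chr15:59105026-59105145 (+), that of HMMR, a spindle protein, is chr5:163460512-163460631 (+), and that of MKI67 is chr10:128126424-128126543 (-). The CCNB1 stretch, chr5:69167030-69167149 (+), holds CCAAT boxes and no TTTGAA. That of E2F1, chr20:33686386-33686505 (-), holds TTTGGCGC beside the start. Over the 250 bases before the start, searched on both strands, TTTGAA stood in 13.6% of all 27305 promoters of the table and in 8.22% of the 9188 promoters matched to the 11419 tested genes. It stood in 18.8% of the 430 promoters of genes called and more than 2-fold higher in dividing cells, and in 36.2% of the 58 promoters of genes more than 16-fold higher. CCAAT was found in 35.1% of the promoters of tested genes, in 53.5% of those more than 2-fold higher and in 69.0% of those more than 16-fold higher. Both motifs together stood in 3.33%, 14.9% and 31.0% of these promoters. By list, TTTGAA was in 13 of 28 promoters of spindle and kinesin genes, in 5 of 7 of cytokinesis genes, in 9 of 23 of condensin and chromatin genes, in 7 of 19 of cyclins and CDK regulators, in 5 of 14 of mitotic kinases, in 3 of 17 of kinetochore genes, and in 0 of 30 of DNA replication and 0 of 13 of repair genes. It was in 2 of 16 promoters of nucleotide synthesis genes, 2 of 12 of cycle transcription factors and 1 of 15 of histone genes. Among lists without a common rise, it was in 3 of 21 promoters of fibroblast genes, 3 of 15 of immediate early genes, 2 of 10 of contractile genes, 2 of 28 of CDK inhibitors and p53 targets, 1 of 14 of secreted proteins, 1 of 20 of glycolysis and 0 of 16 of cholesterol synthesis genes, and it was in 11.7% of the promoters of genes more than 2-fold lower. The E2F letters TTTCCCGC or TTTGGCGC, on either strand, were in 11 of the 30 replication promoters and in 3.28% of those of all tested genes. They were in 4 of 12 promoters of cycle transcription factors, 3 of 28 of spindle, 2 of 17 of kinetochore and 1 of 16 of nucleotide synthesis genes. Repair, histone and mitotic kinase genes had them in 0 of 13, 0 of 15 and 0 of 14. For genes more than 2-fold and more than 16-fold higher the shares were 7.67% and 10.3%. CCAAT was also in 13 of 16 promoters of cholesterol synthesis genes, 13 of 15 of histone genes, 6 of 10 of contractile genes and 15 of 28 of CDK inhibitors and p53 targets. It was in 6 of 15 of immediate early genes, 6 of 21 of fibroblast genes, 4 of 14 of secreted proteins and 5 of 20 of glycolysis genes. The sets of higher genes come from a split of cells on their own cycle transcripts, so genes made together with MKI67 and TOP2A were bound to be in them. These are matches of letters, and binding was not measured.

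The gate took similar shares of both pools. Pool A gave 970 dividing cells, which is 15.8% of its kept cells, and pool B gave 788, which is 17.0%. MKI67 lies on chromosome 10 at 128096659-128126423 and TOP2A on chromosome 17 at 40388525-40417896 (GRCh38, minus strand both). A dividing cell had a median of 14 UMIs of the pair in either pool, with a highest value of 82 in pool A and 108 in pool B. MKI67 had a median of 8 UMIs in both pools, and TOP2A had 6 in pool A and 5 in pool B. All but 12 and 7 members held at least 1 MKI67 UMI, and all but 56 and 38 held at least 1 TOP2A UMI, in pools A and B. Just inside the threshold were 93 and 67 cells with 5 UMIs, and just outside it were 106 and 94 cells with 4. These values chose the cells and are not results.

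As a class, dividing cells had a higher median of UMIs per cell. Their median UMI total was 28587 in pool A and 32159 in pool B, against 22747 and 27435 in non-dividing cells, a ratio of 1.26 and 1.17 (mean 1.21 ± 0.060, SD, n = 2 pools). Genes detected per cell had medians of 4959.5 and 5312 against 4164 and 4631, and mitochondrial UMIs took 2.87% and 3.22% against 2.97% and 3.34%. The excess was not even along the gate. Dividing cells with 6 to 9 UMIs of the pair had medians of 23025 in pool A and 26787 in pool B. Those with 20 to 39 had 34753 and 36738. In pool B the former lay below the non-dividing median. A gate on UMIs favours deep cells, and its part in this ratio was not tested. The ratio was 1.14 when cells above the 95th percentile of UMI totals, which could include doublets, were left out, and 1.35 with a gate of 10 UMIs. No doublet caller was run. The D0 libraries shared 34 cell barcodes, of 6212 and 4721.

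The fibroblast label held. COL1A1, COL1A2, COL3A1, VIM, DCN, LUM, PDGFRB, FN1, THY1 and ANPEP were found in dividing cells of both pools, with COL1A1 at 592 and 720 CPM (counts-per-million, a gene’s share of all UMIs summed over the class) and VIM, the intermediate filament of mesenchymal cells, at 8049 and 8443 CPM. Of 24 markers of other cell types, 7 were at 0 in both classes of both pools. Without CD68, a lysosomal protein that fibroblasts also make, the remaining 23 summed to 5.45 and 5.28 CPM in dividing and 6.71 and 6.90 CPM in non-dividing cells.

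For the comparison of the classes, UMIs were summed per pool and class and fitted with edgeR's quasi-likelihood test with the pool as a block. Of 11419 genes tested, 5486 (48.0%) were called at an adjusted p under 0.01 and a log2 difference beyond 0.25. They were 2785 higher (24.4%) and 2701 lower (23.7%) in dividing cells. Since close to every other gene was called, the size of a difference says more than its call, and 518 genes (4.54%) were called and more than 2-fold higher while 139 (1.22%) were more than 2-fold lower. The cells were split on transcripts of their own cycle, so genes made at the same time were bound to differ, and the test tells only how evenly they did so in the pools. MKI67 and TOP2A were not tested. The tested genes had a UMI in at least 5% of all kept D0 cells, and some passed only through cells with UMIs of the pair. In both pools, under 5% of non-dividing cells held a UMI of 9 of the 19 tested mitotic kinase and checkpoint genes, 9 of 22 kinetochore, 9 of 30 spindle, 3 of 11 cytokinesis, 8 of 36 replication and 6 of 16 repair genes. The same held for 3 of 25 condensin and chromatin genes (NCAPH, ASF1B and LMNB1), 3 of 24 cyclins and CDK regulators (CCNF, CDC25C and PKMYT1) and 4 of 15 transcription factors (MYBL2, E2F1, E2F7 and MYBL1). Among the genes of the first 6 lists under this limit were SPC25, NUF2, CENPA, NEK2, BUB1B, CDCA8, KIF2C, FAM64A, CEP55, RAD51AP1 and BRCA1. The counts and medians of these 9 lists below, and the calls of these genes, are in part set by that filter. The members it left out of the first 6 lists, 1, 2, 1, 2, 5 and 6 genes, had a higher CPM in dividing cells of both pools as well, as did 2 of 3 cyclins and CDK regulators and 4 of 5 transcription factors left out. With D0 pool A or pool B left out, in a fit that takes its spread from D3, 1605 and 1477 genes were called. With comparison cells matched one to one on UMI total, 5241 genes were called, and without TMM scaling the share of calls that were higher was 64.4% instead of 50.8%, with all genes shifted by 0.079 on the log2 scale.

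Among the lists, mitotic kinases and checkpoint genes, cytokinesis, spindle and kinetochore genes had the largest median differences, 4.33, 4.31, 3.97 and 3.76 on the log2 scale. SPC25, a part of the NDC80 complex that ties microtubules to kinetochores, stood at 76.8 and 75.3 CPM in dividing cells of pools A and B. In non-dividing cells it stood at 0.894 and 0.860 CPM, a log2 difference of 6.36 ± 0.065 (SE of the edgeR fit). Its partner NUF2 had 92.6 and 96.3 against 1.35 and 1.30 CPM, a difference of 6.07. The centromeric histone CENPA had 89.1 and 96.3 against 1.64 and 1.76 CPM. The pools gave nearly the same value in each class. All 22 tested kinetochore and centromere genes were called higher, with a median log2 difference of 3.76, where the median of all genes tested was -0.01.

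The mitotic kinases and the spindle checkpoint behaved in the same way, with 19 of 19 tested genes called higher and a median of 4.33. NEK2, a kinase that splits centrosomes, had the largest value of this list, 36.6 and 40.5 against 0.355 and 0.499 CPM, a log2 difference of 6.42 ± 0.095. BUB1B, the checkpoint protein BubR1, had 29.8 and 28.8 against 0.527 and 0.388 CPM. CDCA8, also called borealin, guides Aurora B to centromeres and stood at 58.1 and 53.02 against 1.08 and 0.679 CPM. SGOL1, which protects cohesion at centromeres, differed by 5.86 and DEPDC1, a gene of mitotic progression, by 6.16.

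Among spindle genes, 30 of 30 were called higher with a median of 3.97. HMMR stood at 127.7 and 119.1 against 2.07 and 1.69 CPM, and KIF2C, a kinesin that takes microtubules apart, at 46.3 and 45.2 against 0.791 and 0.804 CPM. FAM64A differed by 5.56 and GTSE1, which acts on microtubules and on p53, by 5.70. The tubulin genes of this list had differences below its median, but they are near copies of each other whose reads can be split unevenly. In cytokinesis, 9 of 11 tested genes were called higher, among them CEP55 of the midbody (82.6 and 83.9 against 1.99 and 1.71 CPM), PRC1, which bundles the central spindle (261.7 and 247.4 against 9.02 and 8.71 CPM), and CDCA3. CIT, the citron kinase, went the other way with 52.6 and 58.9 against 68.2 and 74.4 CPM, a log2 difference of -0.44 ± 0.031, not called with either pool left out.

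Chromosome structure genes were all called higher, 25 of 25, at a median of 2.16. The condensin subunit NCAPH had 32.0 and 31.1 against 0.470 and 0.638 CPM, and the histone chaperone ASF1B and the lamin LMNB1 differed by 4.68 and 4.10.

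**Figure D1:**
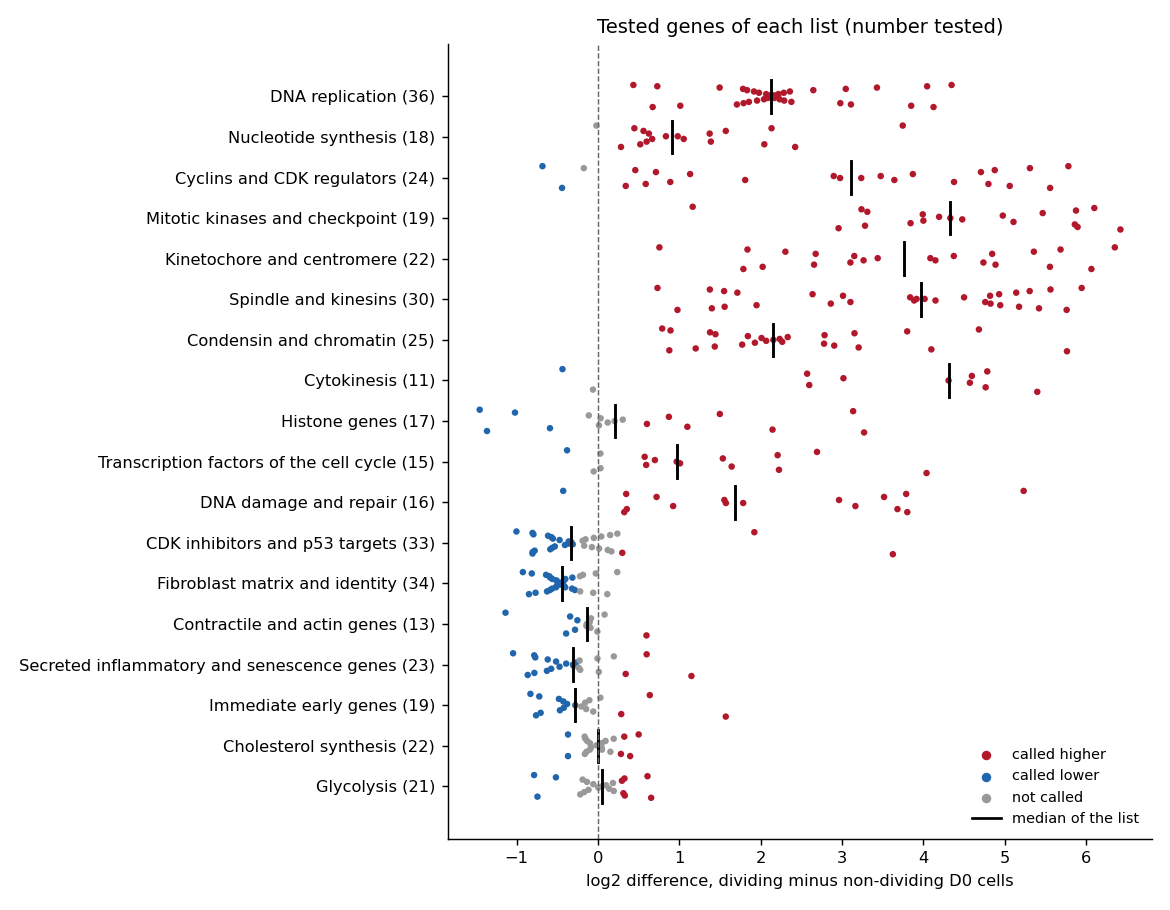
Log2 difference between dividing and non-dividing D0 cells for each tested gene of 18 lists, with 1 point per gene (red called higher, blue called lower, grey not called) and a black bar at the median of the list. Lists of mitosis have medians between 3.76 and 4.33, DNA replication has 2.13, and the fibroblast list has -0.45 with no gene called higher.

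The replication machinery was also higher, by less. All 36 tested genes of DNA replication were called higher, with a median of 2.13 and 33 of them beyond 2-fold. CLSPN, a mediator of the replication checkpoint, had 73.5 and 68.0 CPM against 3.56 and 4.64 CPM, FEN1, the flap nuclease of the lagging strand, 39.9 and 37.9 against 2.49 and 2.63 CPM, and ORC6 of the origin recognition complex 32.2 and 30.2 against 2.57 and 2.95 CPM. Nucleotide synthesis gave 17 of 18 called higher (9 and 11 without pool A or pool B) and a median of 0.91. Its leaders were RRM2, the cycle-bound subunit of ribonucleotide reductase (147.2 and 155.0 against 10.6 and 10.6 CPM) and TYMS, thymidylate synthase (281.7 and 308.3 against 50.5 and 53.4 CPM). Repair genes gave 15 of 16 called higher (10 and 11 without pool A or B) at a median of 1.68, with RAD51AP1 at 5.23, BRCA1 at 3.52 and FANCI at 3.17. The uracil glycosylase UNG was the 1 repair gene called lower, at -0.43, was not called without either pool or by DESeq2, and is named after its value was seen.

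The cyclins did not move as one. CCND1, the cyclin D of G1, had 434.3 CPM in pool A and 380.9 CPM in pool B in dividing cells and 542.4 and 505.1 CPM in non-dividing cells, a log2 difference of -0.44 ± 0.020 (edgeR, adjusted p = 8.4e-20). CCNE1 was low in every class and lower in dividing cells, 2.06 and 1.76 against 2.80 and 3.06 CPM (-0.68 ± 0.15). CCND3 differed in the opposite direction, 27.1 and 26.7 against 16.9 and 17.0 CPM. Thus the transcripts of CCND1 and CCNE1 were lower, and those of CCND3 higher, in sums over the same class. None of these 3 calls held with either pool left out.

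CCNA2 stood at 65.3 and 73.2 CPM against 2.14 and 2.302 CPM, a log2 difference of 4.88. CCNB1 had 280.2 and 279.2 against 10.9 and 9.25 CPM (4.71 ± 0.037), CCNB2 had 134.5 and 138.7 against 6.48 and 5.89 CPM, and CCNF, an F-box protein, 11.95 and 14.78 against 0.779 and 0.943 CPM. In the intermediate class CCNB1 was at 36.3 and 31.0 CPM and CCNA2 at 3.43 and 3.26 CPM. Summed over this class, both were thus above the non-dividing level in both pools. In cells with 1 UMI of the pair, CCNA2 was at 2.82 CPM in pool A and 1.96 CPM in pool B, the latter below the non-dividing level. UMIs of the pair define the class, so genes made together with the pair were bound to be higher in it.

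Of their partners, CDK1 had 114.8 and 108.3 against 3.01 and 3.34 CPM (5.06 ± 0.049), CDK2 differed by 1.81 and CDK4 by 0.46, and CDK6 was not called (30.9 and 31.8 against 32.6 and 34.5 CPM). The phosphatase CDC25C, which activates CDK1, differed by 5.31, CDC25B by 1.13, and the opposing kinases PKMYT1 and WEE1 by 4.80 and 0.89. The CDK-binding proteins CKS1B and CKS2 had 388.2 and 388.6 against 29.6 and 29.2 CPM and 577.1 and 596.1 against 58.8 and 58.9 CPM. Activators and inhibitors of CDK1 were therefore both higher in sums over the class, which do not show whether single cells held both.

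The genes that take cyclins apart were high as well. UBE2C stood at 374.7 and 370.2 CPM against 6.13 and 6.72 CPM (5.78 ± 0.034) and CDC20 at 220.8 and 220.4 against 4.45 and 4.41 CPM (5.56 ± 0.039). UBE2S, the second conjugating enzyme of the complex, differed by 3.48, its inhibitor FBXO5 by 2.98, and its target PTTG1 (securin, which holds sister chromatids together until anaphase) by 2.90. FZR1, the activator that takes over from CDC20 in late mitosis and G1, differed by 0.71, and SKP2 by 0.34. In all, 21 of 24 tested cyclins and CDK regulators were called higher and 2 lower.

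**Figure D2:**
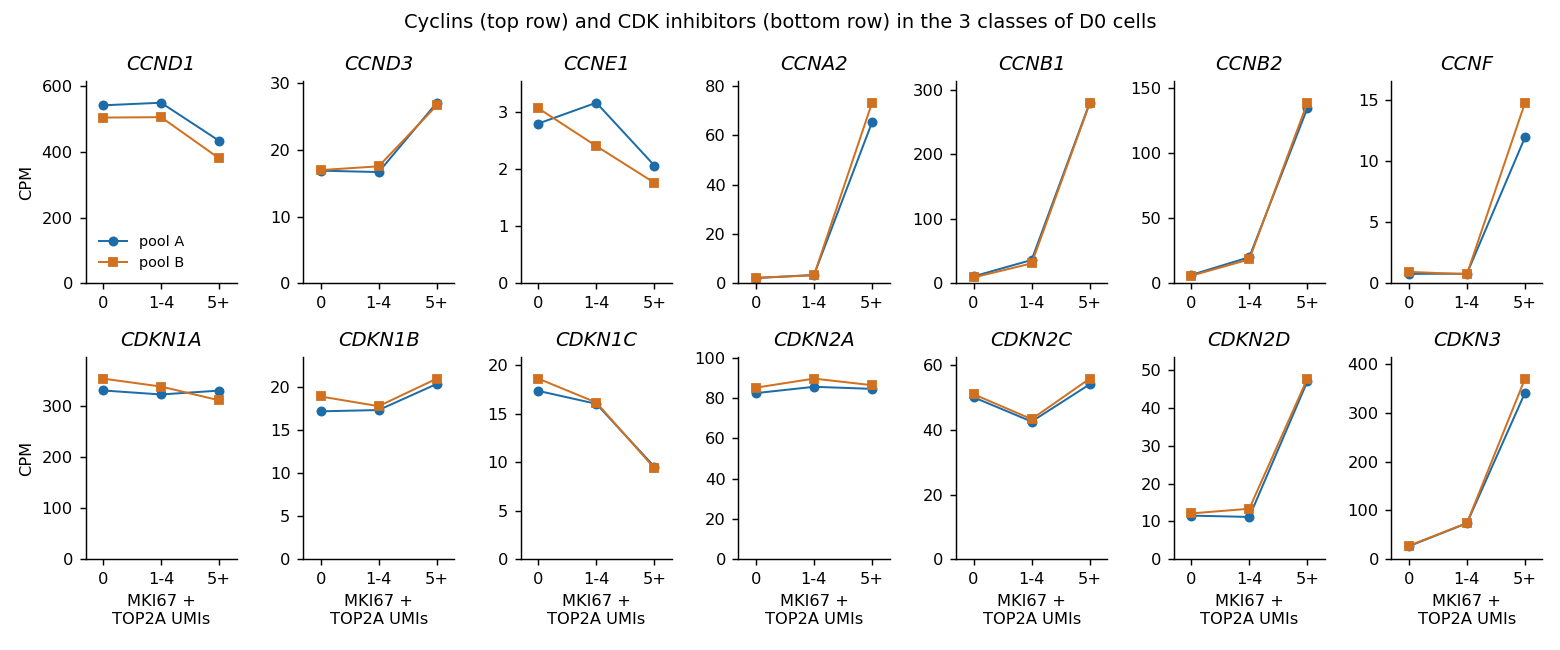
CPM of 7 cyclins and 7 CDK inhibitors in D0 cells with 0, 1 to 4 or 5 and more UMIs of MKI67 and TOP2A, with 1 point per pool (A circles, B squares) and axes from 0. CCNA2, CCNB1, CCNB2, CCNF, CDKN2D and CDKN3 are highest in dividing cells, CCND1 and CDKN1C are lowest there, and CDKN2A lies between 82.5 and 89.7 CPM in all 3 classes.

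Transcription factors of the cycle gave 11 of 15 called higher (7 and 9 without pool A or B) and 1 lower (none without either), at a median of 0.97. MYBL2 had 13.03 and 17.06 against 0.871 and 0.832 CPM (4.04 ± 0.11) and FOXM1 46.1 and 54.9 against 9.498 and 11.16 CPM (2.21 ± 0.045). E2F1 had 10.6 and 10.98 against 1.46 and 1.71 CPM, and MYBL1, E2F7, TFDP1 and E2F4 differed by 2.23, 1.54, 1.01 and 0.57. The tested MuvB subunits LIN52 and LIN54 were higher, by 0.97 and 0.70, at low levels. LIN52 had 3.68 and 3.76 against 1.65 and 1.97 CPM, and LIN54 had 3.99 and 5.03 against 2.28 and 2.98 CPM.

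The retinoblastoma family, which holds E2F factors in check, was mixed. RBL1 differed by 1.64 and RB1 by 0.59, and RBL2 was not called (13.1 and 12.03 against 11.9 and 11.4 CPM). TFDP2 was lower, at -0.38, and E2F3 and MYC were not called. MYC had 19.5 and 20.9 against 18.7 and 18.7 CPM, so the oncogene delivered later as mRNA was at one level in both classes to within 0.03 ± 0.051 on the log2 scale.

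The list of CDK inhibitors and targets of p53 had 19 of 33 genes called lower (57.6%) and 3 higher (9.09%), with a median of -0.34. Of all genes tested, 23.7% were called lower and 24.4% higher. Of its 8 CDKN genes, 2 were called lower, 2 were called higher and 4 were not called, so 17 of the genes called lower were not CDK inhibitors. The CDKN counts are near the shares of all genes tested. Without pool A or B, 8 and 7 genes of the list were called lower, and CDKN1C, CDKN2B, MDM2, BBC3, FOXO3 and GADD45A were not called. CDKN1C (p57) was at 9.54 and 9.39 CPM against 17.4 and 18.6 CPM (-1.002 ± 0.063), and CDKN2B at 5.58 and 5.45 against 6.02 and 7.501 CPM (-0.36). CDKN1A, the p21 inhibitor induced by p53, was not called, with 330.5 and 311.4 CPM against 330.8 and 354.0 CPM (-0.17 ± 0.026). CDKN1B (p27), CDKN2A (p16 and ARF) and CDKN2C were not called either, at 0.12, -0.05 and 0.04. Dividing fibroblasts thus had a CDKN2A level close to that of the others, 84.6 and 86.4 against 82.5 and 85.2 CPM.

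CDKN3, a phosphatase that acts on CDKs and is itself made in mitosis, was higher, 340.9 and 369.9 against 26.7 and 27.7 CPM (3.63 ± 0.026). CDKN2D (p19) was too, 47.0 and 47.8 against 11.5 and 12.1 CPM, as was GADD45A by 0.30. Among p53 targets and genes of arrested cells, those called lower included CCNG1 (-0.56), TP53I3 (-0.61), ZMAT3 (-0.79), BTG2 (-0.80), GAS1 (-0.80), KLF4 (-0.80), TXNIP (-0.78), BBC3 (-0.53), MDM2 (-0.33), FOXO3 (-0.41), YPEL3 (-0.57) and YPEL5 (-0.59). The p53 targets BAX (511.6 and 515.1 against 429.5 and 436.9 CPM, 0.17) and FAS (0.24) were higher by less than the limit of 0.25. RRM2B was at 0.01, and none of them was called.

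Histone genes differed in both directions. The replication-dependent histones are made in S phase and their main transcripts lack a poly(A) tail, so an oligo-dT library catches only part of them, and near-identical copies share reads, which makes these counts uncertain. HIST1H4C had 1289 and 1145 CPM in dividing and 122.2 and 116.4 CPM in non-dividing cells (3.27 ± 0.022), and the linker histone HIST1H1A 24.1 and 23.5 against 2.80 and 2.29 CPM. H1FX differed by 0.87. HIST2H2BE (10.5 and 10.0 against 27.15 and 25.996 CPM, -1.45 ± 0.056) and HIST1H2AC (22.03 and 23.68 against 56.7 and 54.4 CPM, -1.36) were lower. Of 17 tested, 7 (41.2%) were called higher and 4 (23.5%) lower, beside 24.4% and 23.7% of all genes tested, so the share called lower is near the background. Without pool A or B, 6 and 6 were called higher and 3 and 2 lower.

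Fibroblast identity genes were lower, by moderate amounts. Of 34 tested, 27 were called lower and none higher, at a median of -0.45, and none was lower by more than 2-fold. Without pool A or B, 15 and 13 were called lower. LUM, the collagen-binding proteoglycan lumican, had 626.5 and 601.2 CPM against 1174 and 1033 CPM (-0.92 ± 0.021). DCN (decorin) had 295.6 and 312.7 against 506.9 and 529.5 CPM (-0.85), and FBLN2 (fibulin) 32.1 and 28.2 against 49.8 and 50.8 CPM. COL1A1 had 592.2 and 719.9 against 751.5 and 905.0 CPM (-0.42 ± 0.018), COL1A2 differed by -0.50 and COL3A1 by -0.56. THY1 (-0.22) and ANPEP (-0.03) were not called. The whole list summed to 41660 and 41252 CPM in dividing and 49961 and 50154 CPM in non-dividing cells. CPM are shares of a total, and dividing cells had more UMIs. Per cell the list summed to 1355 and 1488 UMIs in dividing and 1249 and 1483 UMIs in non-dividing cells, and without LGALS1, a galectin and its most abundant gene, to 717.9 and 809.8 against 724.7 and 882.5 UMIs. With comparison cells matched on UMI total, 26 genes of the list were called lower and 1 higher, at a median of -0.47. Without matching, COL1A1 had 19.3 and 25.97 UMIs per dividing cell against 18.8 and 26.8, while LUM had 20.4 and 21.7 against 29.3 and 30.5 and DCN 9.61 and 11.3 against 12.7 and 15.7. Of the 34 genes, 15 had fewer and 11 had more UMIs per dividing cell in both pools, but the gate favours deep cells and these values per cell carry that depth. Among the 11 were PRRX1 (5.57 and 6.01 against 3.50 and 3.87) and TWIST1 (2.02 and 2.60 against 1.38 and 1.83). Both are named after their values were seen.

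Secreted proteins were mostly lower too, with 14 of 23 tested genes of the inflammatory and senescence list called lower and 3 higher (without pool A or B, 5 and 5 lower, and 0 and 1 higher). Of all genes tested, 23.7% were called lower and 24.4% higher. IGFBP5, a secreted binder of insulin-like growth factors, was among the 10 strongest falls at 50 CPM or more in non-dividing cells, with 638.2 and 638.5 against 1252 and 1239 CPM (-1.04 ± 0.022). IGFBP6 had 587.2 and 542.4 against 937.2 and 903.0 CPM, and IGFBP3 17.5 and 20.2 against 31.4 and 33.2 CPM. The hormone STC1 (0.60), not called without pool A, and the urokinase receptor PLAUR (0.34), not called without either pool, were higher. The third gene called higher was the growth factor AREG (1.15), not called without either pool and named after its value was seen. Of the 34 genes of the list, 11 were not tested because too few cells held a UMI, IL6 and CXCL8 among them.

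At 50 CPM or more in non-dividing cells, the strongest falls beside IGFBP5 and HIST1H2AC were ARMC9 (29.8 and 29.0 against 72.9 and 69.1 CPM, -1.35), the lipid carrier APOD (72.0 and 76.2 against 164.3 and 166.3 CPM, -1.24), the matrix protein CTGF (25.4 and 26.9 against 54.6 and 54.1 CPM, -1.14), TM7SF2 of sterol synthesis, the coagulation factor F10, the selenoprotein SELM, the transcription factor OSR2 and the microfibril protein MFAP4, the last 5 between -1.08 and -1.03. In the list of contractile and actin genes, 5 of 13 were called lower and 1 higher (without pool A or B, 1 lower and none higher). Beside this, 23.7% of all genes tested were called lower and 24.4% higher. MYL9 (-0.39) was among the 5, as were CTGF and CYR61 (-0.34), secreted proteins that this list also held. Immediate early genes gave 10 of 19 called lower (6 and 6 without pool A or B) and 3 higher (1 and 1), with JUNB (193.8 and 189.9 against 320.3 and 326.0 CPM), ZFP36 and KLF2 at -0.83, -0.76 and -0.72 and IER5, not called without either pool, at 0.29.

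Metabolic lists showed little common direction. In cholesterol synthesis 4 of 22 genes were called higher (MVK 0.50, EBP 0.40 and PMVK 0.32 among them) and 2 lower (MSMO1 and HMGCS1, both -0.37), with a median of 0.00. That list did not hold TM7SF2 of sterol synthesis, named above among the strongest falls (-1.085). In glycolysis 6 of 21 were called higher and 3 lower. ENO1 (951.6 and 899.2 against 605.2 and 543.8 CPM), PFKP and LDHA were higher by 0.61, 0.65 and 0.33, and ALDOC, SLC2A3 and PFKM were lower by -0.79, -0.74 and -0.52. Without pool A or B, 1 and 0 cholesterol genes were called higher and none lower, and MVK and PMVK were not called with either. Glycolysis then gave 3 and 2 called higher and 2 and 2 lower, with ENO1, PFKP, ALDOC and SLC2A3 called both times. In cholesterol synthesis 18.2% of the genes were thus called higher and 9.09% lower, and in glycolysis 28.6% and 14.3%, beside 24.4% and 23.7% of all genes tested.

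Dividing cells were not alike. With 43 genes of the published S phase list and 52 of the G2/M list, they had 1637 and 1644 CPM on the S list against 381 and 375 CPM in non-dividing cells, and 8099 and 8144 CPM on the G2/M list against 1037 and 1008 CPM. Per cell, the G2/M list ran from 3107 CPM at the 10th percentile over a median of 8263 to 15721 CPM at the 90th in pool A, and from 3287 over 8048 to 15188 CPM in pool B. The S list ran from 708 over 1532 to 2980 CPM in pool A and from 732 over 1493 to 2828 CPM in pool B. Against the 95th percentile of non-dividing cells of the same pool, 87.8% and 89.1% of dividing cells were high on both lists, 9.07% and 9.14% on the G2/M list alone, 0.309% and 0.254% on the S list alone and 2.78% and 1.52% on neither. These classes are ranges of a score, and 6.49% and 6.85% of dividing cells lay within 10% of a cut. Both lists rise and fall with the cell's own phase, and across the 970 and 788 cells they had a Pearson correlation of 0.53 and 0.55, where the cells share a library and the scores share each cell's total.

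Levels within the dividing class are given along the number of UMIs of the pair as a description with no test, since that number chose the cells and genes made together with the pair are bound to climb along it. In pool A, CDK1 went from 6.91 CPM in cells with 5 UMIs over 16.4 (6 to 9 UMIs), 56.1 (10 to 19) and 179.3 (20 to 39) to 303.7 CPM (40 or more), and in pool B from 12.2 to 277.3 CPM. UBE2C went from 34.6 to 1053 CPM in pool A and from 39.1 to 962.8 CPM in pool B.

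CCNB1 and CDC20 had another course. In pool A CCNB1 was already at 198.6 CPM in cells with 5 UMIs, then at 269.5, 287.5, 227.4 and 433.9 CPM, and in pool B at 171.9, 252.4, 288.9, 220.2 and 397.9 CPM. CDC20 was at 149.9, 210.9, 215.6, 193.6 and 339.6 CPM in pool A. In both pools, then, CCNB1 dipped in cells with 20 to 39 UMIs, where HIST1H4C peaked. HIST1H4C was at 264.4, 616.2, 1406, 2104 and 1084 CPM in pool A and at 346.2, 443.3, 1222, 2017 and 1112 CPM in pool B.

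RRM2 was higher at each of the 5 steps, from 90.2 to 199.97 CPM in pool A and from 87.4 to 208.5 CPM in pool B, while PCNA, the replication clamp, which the naming rule did not name, went from 90.6 to 215.9 CPM at 20 to 39 UMIs and stood at 208.4 CPM at 40 or more. CCND1 was at 475.4 CPM in cells with 5 UMIs and 338.3 CPM in those with 40 or more in pool A, and at 424.9 and 296.8 CPM in pool B. CDKN1A stayed between 271.3 and 381.8 CPM in all 5 steps of both pools. Depth moved with the steps, from a median of 24265 to 37487 UMIs in pool A and from 26107 to 41101 in pool B, and its part in these courses was not tested.

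**Figure D3:**
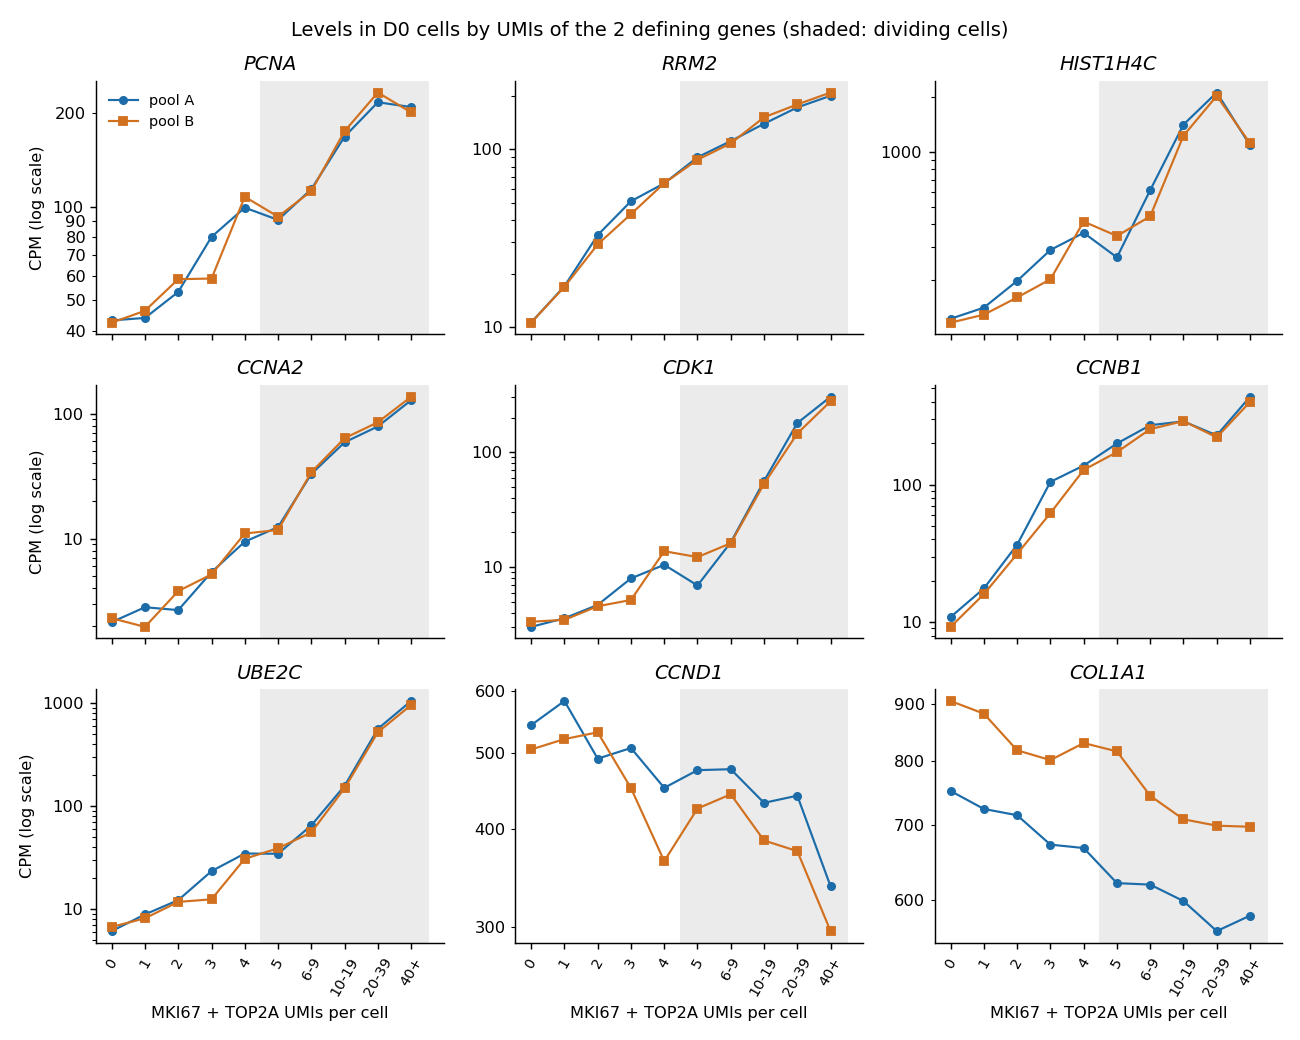
CPM (log axes) of 9 genes in D0 cells grouped by their UMIs of MKI67 and TOP2A, with 1 line per pool and the dividing cells shaded. CDK1 and UBE2C climb through the shaded range to 303.7 and 1053 CPM in pool A, HIST1H4C peaks at 20 to 39 UMIs, where CCNB1 dips, and CCND1 and COL1A1 are lower in dividing than in non-dividing cells.

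Counted by cells thinned to 10000 UMIs, CCNB1 had a UMI in 79.0% and 79.5% of dividing cells and in 9.83% and 8.11% of non-dividing cells (92.9% and 95.4% against 21.7% and 22.3% unthinned). CDC20 was found in 77.9% and 77.5% against 4.18% and 3.91%, UBE2C in 67.9% and 67.3% against 6.17% and 6.82%, and SPC25 in 50.5% and 49.2% against 0.995% and 1.08%. LUM had a UMI in 96.9% and 96.6% of dividing and 99.5% and 99.2% of non-dividing cells, a share too near its ceiling to show a difference in level. Thinning left out 3 and 1 dividing and 74 and 34 non-dividing cells that were shallower. Free RNA in the droplets and cells of the cycle without a UMI of the pair cannot be told apart in the shares of non-dividing cells, and no background share was estimated for either class.

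Dividing cells were then set against the later days. In cells thinned to 5000 UMIs, MKI67 or TOP2A was found in 21.7% and 22.2% of D0 cells, a mean of 21.9% ± 0.30 (SD, n = 2 pools), and in 21.9% to 67.6% of cells in the 14 later pools, with a mean of 37.8%. Of the 14 later pools, 13 lay above both D0 pools. The difference was -15.8 percentage points. With the gate itself and no thinning, 16.4% ± 0.86 of D0 cells and 23.7% to 80.0% of later cells were dividing, a difference of -26.9 points, and the later pools had median totals of 28763 to 80168 UMIs per cell against 23717 and 28376.5 in the D0 pools. These shares are a description with no test, since they count UMIs of the genes that chose the cells. D5, at 22.7% ± 1.08 after thinning, was nearest to D0 and within the spread between pools, and D15 was highest at 62.9% ± 6.6.

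**Figure D4:**
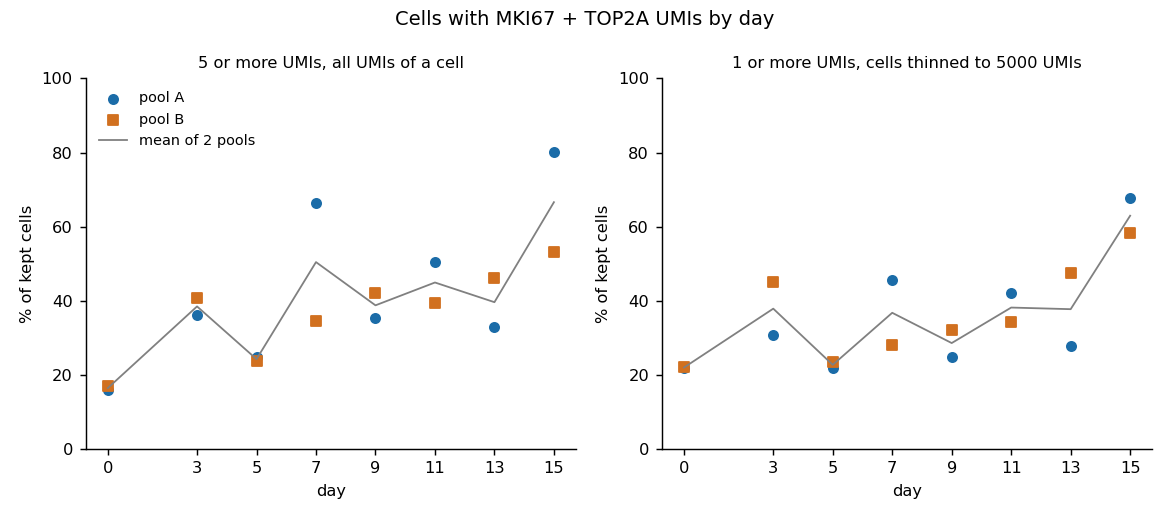
Percent of kept cells with 5 or more UMIs of MKI67 and TOP2A (left) and with 1 or more after each cell was thinned to 5000 UMIs (right), by day, with 1 point per pool and a line through the mean of the 2 pools. The D0 pools lie at 15.8% and 17.0% on the left and at 21.7% and 22.2% on the right, where D15 has a mean of 62.9%.

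The same gate gave 2625 dividing cells on D3, with a median of 10 UMIs of the pair in both pools, against 14 on D0. The difference between dividing and non-dividing cells was tested against that of D0 in one fit of both days. Of 11530 genes tested, 3048 (26.4%) had a log2 difference that differed between the days (edgeR, interaction of class and day, adjusted p under 0.01 and beyond 0.25). It was more positive on D0 for 1639 genes (14.2%) and on D3 for 1409 (12.2%). Of the 19 mitotic kinase and checkpoint genes 14 were more positive on D0 and none on D3, and the medians were 4.28 on D0 and 2.85 on D3. Kinetochore genes gave 18 of 24 and medians of 3.30 and 2.31, and spindle genes gave 24 of 31 and 3.97 against 2.92. DNA replication genes gave 12 of 40 on D0 and 1 on D3, with medians of 2.12 and 1.79.

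SPC25 had the largest gap of the named genes, a log2 difference of 6.31 on D0 and 3.41 on D3 (2.90 ± 0.40). Its D0 value rests on 78 and 62 UMIs summed over the non-dividing cells of pools A and B. In dividing cells it stood at 76.8 and 75.3 CPM on D0 and at 58.5 and 57.5 CPM on D3, and in non-dividing cells at 0.894 and 0.860 CPM on D0 and at 3.42 and 7.603 CPM on D3. The level in non-dividing cells thus moved by a larger factor than that in dividing cells. HMMR had 127.7 and 119.1 CPM in dividing cells of D0 and 52.6 and 70.7 CPM in those of D3, and in non-dividing cells 2.07 and 1.69 CPM on D0 and 4.23 and 8.83 CPM on D3. DEPDC1 had 85.2 and 85.0 against 47.8 and 43.7 CPM in dividing cells and 1.15 and 1.095 against 2.76 and 5.997 CPM in non-dividing cells. NEK2 had 36.6 and 40.5 against 13.8 and 9.51 CPM in dividing cells and 0.355 and 0.499 against 0.660 and 1.13 CPM in non-dividing cells. MXD3, a partner of MAX, had 80.7 and 89.3 against 26.9 and 16.2 CPM in dividing cells and 2.58 and 2.79 against 2.99 and 5.10 CPM in non-dividing cells. All 4 thus had a lower level in dividing and a higher one in non-dividing cells of D3.

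In the other direction, RIMS2, a gene of synaptic vesicle release, was lower in dividing than non-dividing D0 cells (1.97 and 2.74 against 3.22 and 3.02 CPM) and higher in those of D3 (21.9 and 37.0 against 3.84 and 8.78 CPM). POLR3G, a subunit of RNA polymerase III, stood at 5.52 and 5.59 CPM in dividing cells of D0 and 34.015 and 31.4 CPM in those of D3, where non-dividing cells had 5.79 and 7.37 CPM. SNHG7, a host gene of small nucleolar RNAs, and the nuclear receptor ESRRA differed between the days by -1.39 and -1.35. SNHG7 was at 71.1 and 72.4 CPM in dividing and 101.4 and 105.0 CPM in non-dividing cells of D0, and at 158.0 and 100.3 against 87.5 and 62.6 CPM on D3.

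The median of the fibroblast list was lower in dividing cells on both days, -0.50 on D0 and -0.95 on D3. Of its 34 genes, 21 were more positive on D0 against 2 on D3. The contractile and actin list gave 10 of 13, with medians of -0.19 and -0.73. Histone genes gave 2 of 18 more positive on D0 and 5 on D3. Of all genes tested, 14.2% were more positive on D0 and 12.2% on D3, so the histone count on D0 is near the background. Non-dividing cells of D3 had more of the cycle lists than those of D0, 1522 and 1874 CPM on the G2/M list and 694 and 773 CPM on the S list, and D3 pools differed more in depth, with medians of 54420 and 34756 UMIs in dividing cells. Dividing cells of D3 had 6252 and 5768 CPM on the G2/M list, against 8099 and 8144 CPM on D0. On the S list they had 2541 and 2296 against 1637 and 1644 CPM. MKI67 was at 126.5 and 190.7 against 283.1 and 285.7 CPM, and TOP2A at 105.2 and 192.3 against 322.8 and 298.0 CPM. The same gate thus took cells with lower levels of the pair on D3. The part of these values in the differences between the days was not tested. The D3 cells also differ from D0 by transfection and medium, which cannot be told apart here. Without the pool block no gene was called (edgeR, 1327 genes at an unadjusted p under 0.05), and the 9 genes named above had adjusted p values of 0.083 to 0.58. Without D0 pool A or B 87 and 93 genes were called, HMMR and SNHG7 among them with both and the other 7 named genes with neither (adjusted p 0.011 to 0.021). DESeq2 with the block called 2676.

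**Figure D5:**
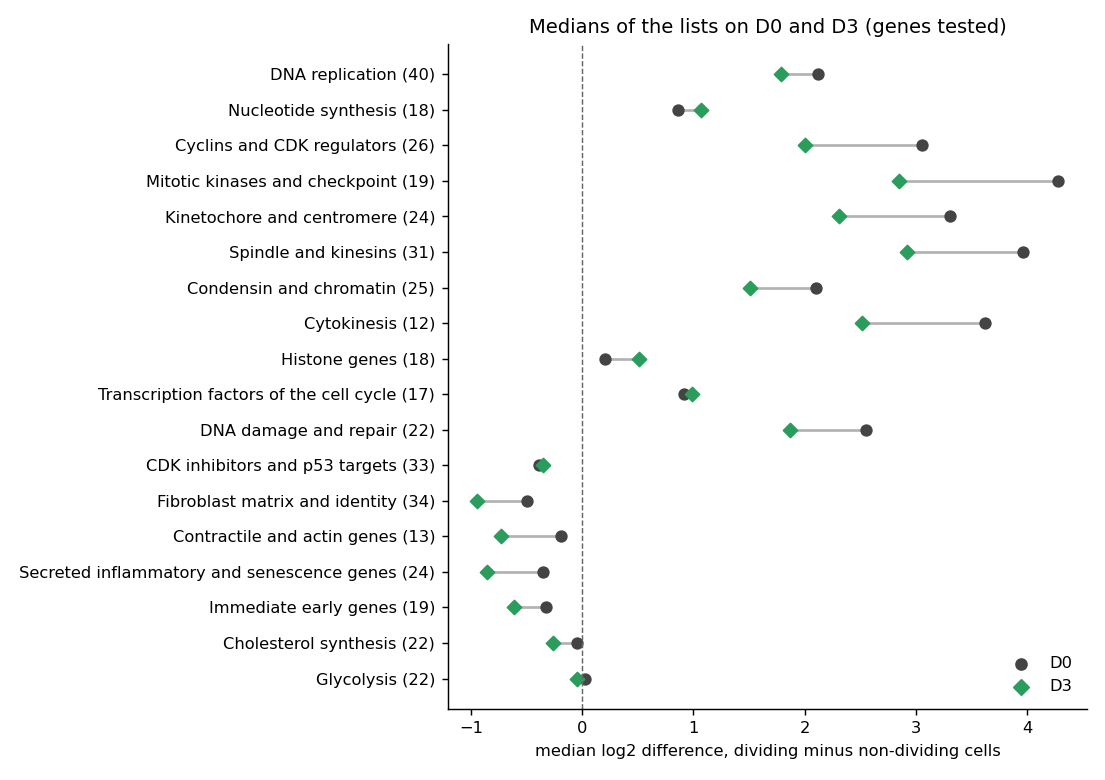
Median log2 difference between dividing and non-dividing cells for 18 lists of genes, in one fit of both days, on D0 (grey circles) and D3 (green diamonds). Mitotic kinase genes have 4.28 on D0 and 2.85 on D3, and fibroblast genes have -0.50 and -0.95.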

How the data were processed

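Droplet libraries (10x 3′) had been counted by the authors with Cell Ranger 2.2 on hg38 with the GRCh38 annotation, and the deposited values are raw UMI counts of 33694 genes for the barcodes that Cell Ranger called as cells, with no normalization and without the authors' later filters. All columns were matched to a library. Between 28424849 and 87284086 UMIs were summed per pool and class of D0 cells. Genes with a UMI in at least 5% of kept D0 cells were tested with edgeR 4.0.16 in R 4.3.3 (TMM, quasi-likelihood test, Benjamini-Hochberg adjustment over all genes tested). The pool was a block because the classes of a pool are cells of 1 capture, and deviations of the 2 pools correlated by 0.65 to 0.79 between classes over 4627 genes. DESeq2 1.42.0 was an alternative. The fit was tested on simulated data. An exact permutation test of the share of cells between days had been planned, and its p is not given because the share counts the transcripts that chose the cells.

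The members and the lists of genes were chosen with earlier results of these data known, so the lists carry no adjusted p of their own. Named were all tested cyclins, cycle transcription factors and CDK inhibitors, the 3 called genes of each other list with the largest difference in each direction at 20 CPM or more, the 10 strongest rises and falls of all genes at 50 CPM or more, and the 5 largest differences between D0 and D3 each way at 20 CPM or more, without mitochondrial and ribosomal protein genes and a few others. A few genes that this rule names are not reported here. Positions came from GENCODE 44 (32807 of 33694 IDs matched) and promoters from RefSeq, with the first listed start of a gene used. Overlapping and antisense genes, and near-identical copies, are uncertain. Figures were drawn with matplotlib 3.10.9.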

Additional observations from a re-analysis of the deposited data

Results flagged for a closer look

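The difference between dividing and non-dividing cells itself differed between D0 and D3, by the test of the interaction, for 3048 genes. Dividing cells of D3 had lower levels of MKI67 and TOP2A than those of D0, and the part of this in the differences was not tested. The largest named values, as the log2 difference on D0 minus that on D3, were 2.90 for SPC25, 2.72 for DEPDC1, 2.67 for HMMR, 2.65 for NEK2 and 2.47 for MXD3, which were more positive on D0. On the other side were RIMS2 at -2.77, POLR3G at -1.73, SNHG7 at -1.39 and ESRRA at -1.35. RIMS2 and SNHG7 were lower in dividing than in non-dividing cells on D0 and higher on D3 in both pools of each day. With either D0 pool left out, HMMR and SNHG7 were still called and the other 7 were not, each in the same direction.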

How the results depend on the processing

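All 657 genes called and more than 2-fold different on D0 were still called, in the same direction, under each alternative that kept both D0 pools. Without D0 pool A or B, in a fit whose spread comes from D3, 620 and 614 of them remained, and the count of all calls was between 1477 and 1605 instead of 5486. The count was 4341 without the replicate block, 4196 by DESeq2, 6375 without a filter on genes, and 8162 at an adjusted p under 0.05 with no limit on the fold. The pools were used as a block because same-lettered classes are cells of 1 capture. Leaving out a D0 pool took calls from the lists with small differences: fibroblast genes then gave 15 and 13 called lower, CDK inhibitors and p53 targets 8 and 7, and secreted proteins 5 and 5. For the difference between D0 and D3 the count was 0 with no replicate block, where differences between the pools of a day enter the spread, and ranged from 87 to 4125 when a pool was left out, the low values without a D0 pool and the high ones (3677 and 4125) without a D3 pool. The share of D0 cells minus that of later days was -31.2 points with no thinning and -26.9 with the gate of 5 UMIs. Leaving out a D0 pool gave -16.1 to -15.6. The ratio of UMI totals was 1.14 without the deepest cells and 1.35 with a gate of 10 UMIs, and 1.17 and 1.26 with a D0 pool left out. Without TMM, 24 fibroblast genes were called lower and 1 higher. The filter on genes, a UMI in at least 5% of kept D0 cells, set the 11419 genes tested.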
